A study of Mus musculus with 4 samples.

Results

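CCR4-NOT is the large complex that shortens the poly(A) tails of messenger RNAs in the cytoplasm, and 10 genes of it were followed here in RNA made before and after removal of SNRNP70, a component of U1 snRNP, the RNA-protein particle that recognises 5′ splice sites. They were the rows of the count table whose symbol is Cnot1, Cnot2, Cnot3, Cnot4, Cnot6, Cnot6l, Cnot7, Cnot8, Cnot10 or Cnot11, 10 genes of 55401. Cnot3 was chosen by its own rise between 0 h and 5 h, being among the genes raised most surely after auxin. The values of Cnot3 in this contrast are therefore a description and carry no test. The other 9 were taken as further genes of its complex, with earlier results of these data known. They leave out Cnot9, a gene of the same complex that fell and is described below. All 10 passed the filter on low counts, as did 17344 genes in all, and each symbol had 1 row.

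Newly made RNA, tagged in living cells with the uridine analogue 4-thiouridine (4sU), was caught on streptavidin beads through a biotin group and sequenced from mouse embryonic stem cells (mESCs) of the 129/Ola line. All 4 libraries came from SNRNP70AID cells, per their titles, in which an auxin-inducible degron sends SNRNP70 to the proteasome once the auxin IAA is added. At 0 h (2 libraries, genotype label WT) the cells had had no IAA, and at 5 h (2 libraries, genotype label for SNRNP70 degradation) they had been in IAA for 5 hours. All cells grew in serum medium with leukemia inhibitory factor, and no library of a line without the degron, or of such a line given IAA, was analysed here. The sources used here do not state whether the degron line is 1 clone, how long the 4sU pulse was, or whether RNA was spiked in. The series text calls the 2 replicates independent but does not name separate cultures. The spread behind each p-value is that between these 4 samples and may be technical.

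Library totals ran from 7174772 to 17752887 counts. The 6 stem cell markers (Pou5f1, Nanog, Sox2, Zfp42, Esrrb and Dppa5a) were all detected, at a summed 2406 to 2526 CPM at 0 h and 2740 to 2809 CPM at 5 h, where CPM (counts relative to a common library size) follows TMM scaling, which takes the bulk of the genes as the reference. Markers of feeder fibroblasts summed to 10.9 to 14.3 CPM with Col3a1 and Twist2 at 0 counts in every library, those of primitive endoderm to 4.71 to 9.53 CPM, of mesoderm to 3.31 to 5.62 CPM and of neurectoderm to 8.02 to 17.5 CPM. The neurectoderm sum was 8.02 and 9.88 CPM at 0 h and 13.6 and 17.5 CPM at 5 h, and its part in the results was not tested. Mitochondrially encoded genes took 4.34% to 4.41% of the counts at 0 h and 6.03% to 7.17% at 5 h. Labelled Snrnp70 RNA itself was higher at 5 h (log2 fold change 0.91 ± 0.09, SE), which does not check the labels, since the degron acts on the protein.

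The complex is built on CNOT1, a long scaffold. The paired proteins CNOT2 and CNOT3 form its NOT module at one end, CNOT10 and CNOT11 bind at the other end, CNOT9 binds in the middle, and the tail is cut by a nuclease of the CAF1 type (CNOT7 or CNOT8) together with one of the CCR4 type (CNOT6 or CNOT6L). CNOT4 is a ubiquitin ligase that is loosely attached. In mouse embryonic stem cells Cnot1, Cnot2 and Cnot3 are known for keeping the cells undifferentiated.

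The windows around the start of Cnot3, whose labelled RNA was the most raised of the 10, and of Cnot10, the only one of the 10 whose labelled RNA fell, are shown for comparison. They run from 250 bases before to 50 bases after the start, on the gene's own strand, from RefSeq (GRCm38.p6, to which mm10 corresponds). For both genes this start lies inside the span given below, so it is not the end of that span. Capitals mark CCAAT or its reverse complement ATTGG, the letters of the CCAAT box.

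Cnot3, chr7:3645019-3645318, plus strand: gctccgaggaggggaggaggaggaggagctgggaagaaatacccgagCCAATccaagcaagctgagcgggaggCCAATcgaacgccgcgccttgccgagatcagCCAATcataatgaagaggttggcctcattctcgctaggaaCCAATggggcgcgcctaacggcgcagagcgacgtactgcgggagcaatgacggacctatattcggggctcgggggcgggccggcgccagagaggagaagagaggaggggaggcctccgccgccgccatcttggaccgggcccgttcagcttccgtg

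Cnot10, chr9:114640151-114640450, minus strand: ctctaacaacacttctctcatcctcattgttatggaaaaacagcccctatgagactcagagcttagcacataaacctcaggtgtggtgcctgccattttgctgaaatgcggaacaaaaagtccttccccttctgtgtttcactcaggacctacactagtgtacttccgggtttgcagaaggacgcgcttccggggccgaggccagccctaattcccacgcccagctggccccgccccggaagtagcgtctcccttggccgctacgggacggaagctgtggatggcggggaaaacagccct

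CCAAT occurs 4 times in the Cnot3 window, all on the gene's strand, beginning 203, 177, 146 and 106 bases before the start. In the Cnot10 window it does not occur on either strand. RefSeq windows were found for 8 of the 10 genes, not for Cnot1 and Cnot7, with 14 windows in all, because some genes have several starts. Of the other 12 windows only that of Cnot6 holds the motif, once, and of all 32851 windows of this length 37.4% hold it at least once and 1.06% hold it 4 or more times, counting both strands. The U1-like 5′ splice site letters GTAAGT and the poly(A) signal letters AATAAA were searched in the same way, and neither is in any of the 14 windows, against 7.65% and 19.6% of all windows. No found match overlapped another. CCAAT was chosen after the Cnot3 sequence had been seen, and these matches are a description of letters, not of binding.

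After 5 h of auxin labelled Cnot3 RNA was 3.73-fold higher, 7 other genes of the complex were higher by 1.24-fold to 1.68-fold, Cnot10 was lower at 0.745 times its 0 h level, and Cnot4 did not pass the test. Counting the 9 genes other than Cnot3, 7 rose and 1 fell at a Benjamini-Hochberg adjusted p under 0.05 in edgeR's quasi-likelihood fit, the threshold used throughout. Of all 17344 tested genes 43.2% passed, 22.0% higher and 21.2% lower. The count depended on the scaling: of the 9 genes 3 rose and 1 fell when libraries were scaled to their totals, and 0 rose (edgeR; 0 at an unadjusted p under 0.05) and 4 fell when they were scaled to the mitochondrially encoded genes. The median log2 fold change of the 9 was 0.44, against -0.02 over all tested genes. In 8 of the 9 the 0 h and 5 h libraries did not overlap, which was so for 73.5% of all tested genes. In RNA from whole cultures, fewer cells that make an RNA and less of it per cell cannot be told apart.

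**Figure D1:**
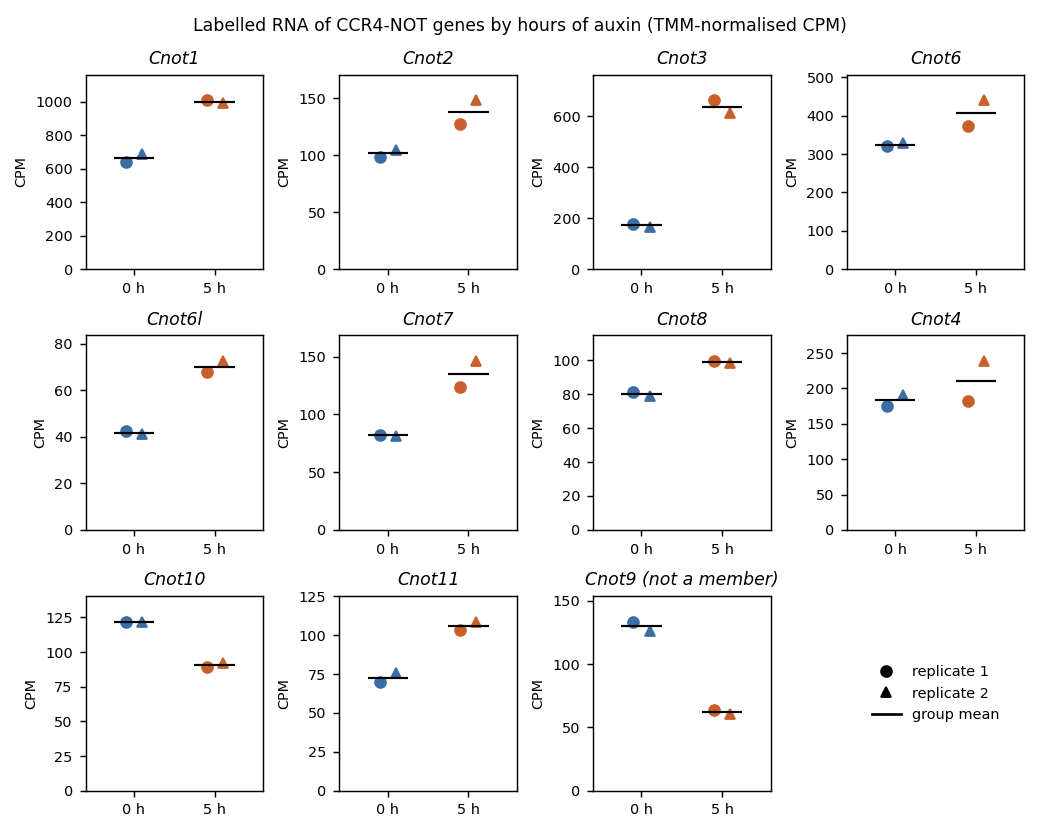
Labelled RNA of the 10 CCR4-NOT genes, and of Cnot9 for comparison, in TMM-normalised CPM (vertical axes from 0, one scale per gene) at 0 h and 5 h of auxin. Each point is 1 library, circles are replicate 1 and triangles replicate 2, and lines are group means. Cnot3 lies at 164 to 177 CPM at 0 h and 611 to 663 CPM at 5 h, Cnot10 and Cnot9 are lower at 5 h, and the groups overlap only for Cnot4.

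Cnot3 (chromosome 7, 3645247 to 3661109, mm10, plus strand) encodes the NOT-module partner of CNOT2. It had 3446 and 1290 counts at 0 h and 9606 and 5652 counts at 5 h. These are 177 and 164 CPM at 0 h and 663 and 611 CPM at 5 h. Each 5 h library was above each 0 h library, by 1.78 to 2.01 on the log2 scale, whereas replicates differed by 0.11 at 0 h and 0.12 at 5 h. The fitted log2 fold change was 1.90 ± 0.09 (SE, 5 h minus 0 h). It lay above that of 97.5% of all tested genes, and its p had rank 3 among the 17344, which is how the gene was chosen.

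Cnot2 (chromosome 10, 116485160 to 116581900), the other NOT-module gene, had 98.7 and 105 CPM at 0 h and 127 and 149 CPM at 5 h. The 5 h libraries were both higher, but they also stood farther apart than the 0 h pair. On the log2 scale it rose by 0.44 ± 0.11 (edgeR, Benjamini-Hochberg adjusted p = 0.00836). It did not pass without 0 h replicate 1 (0.39, adjusted p = 0.0736), with library totals (0.17, adjusted p = 0.221) or with mitochondrial scaling (-0.42, adjusted p = 0.0501), in a range from 0.000953 to 0.221 over 14 alternatives.

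The scaffold gene Cnot1 (chromosome 8, 95718931 to 95808113) had 639 and 688 CPM at 0 h and 1013 and 993 CPM at 5 h. The groups were clearly apart, and the 5 h libraries differed by only 0.03 on the log2 scale. This was a log2 change of 0.60 ± 0.08, or 1.51-fold (edgeR, Benjamini-Hochberg adjusted p = 0.000279).

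Among the CAF1-type nucleases, Cnot7 (chromosome 8, 40492538 to 40515847) had 82.2 and 81.7 CPM at 0 h and 124 and 147 CPM at 5 h. Replicate 2 was the higher of the 5 h libraries, and both lay above the 0 h pair. Cnot7 rose by 0.72 ± 0.11 on the log2 scale (edgeR, Benjamini-Hochberg adjusted p = 0.000537). Cnot8 (chromosome 11, 58092794 to 58118597), its paralogue, had 81.1 and 79.1 CPM at 0 h and 99.6 and 98.5 CPM at 5 h. The libraries of a group lay close together and the groups did not overlap. The change was small, 0.31 ± 0.10, and passed narrowly (edgeR, Benjamini-Hochberg adjusted p = 0.0333). It did not pass by DESeq2 (adjusted p = 0.0601), with no filter on low counts (0.0547), or without 0 h replicate 1 (0.171) or 0 h replicate 2 (0.223), in a range from 0.0224 to 0.791 over 14 alternatives. With library totals Cnot8 was at 0.039 (adjusted p = 0.791), and with mitochondrial scaling it was lower (-0.54, adjusted p = 0.0238).

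The CCR4-type nuclease gene Cnot6 (chromosome 11, 49671497 to 49713401) had 320 and 328 CPM at 0 h and 374 and 441 CPM at 5 h. The 5 h libraries differed from each other by 0.24 on the log2 scale, not far below the change itself. That change was 0.33 ± 0.10 (edgeR, Benjamini-Hochberg adjusted p = 0.0198), and it did not pass without 0 h replicate 1 (0.125), 0 h replicate 2 (0.0880) or 5 h replicate 2, where it was 0.21 (adjusted p = 0.0593, in a range from 0.00110 to 0.620). With library totals Cnot6 was at 0.062 (adjusted p = 0.620), and with mitochondrial scaling it was lower (-0.53, adjusted p = 0.00760). Its paralogue Cnot6l (chromosome 5, 96070333 to 96164198) had 42.4 and 41.2 CPM at 0 h and 67.7 and 72.7 CPM at 5 h. Here both 5 h libraries stood well above the 0 h pair. The log2 fold change of Cnot6l was 0.75 ± 0.12, the highest of the 9 genes other than Cnot3 (edgeR, Benjamini-Hochberg adjusted p = 0.000690).

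CNOT10 and CNOT11 sit together on the scaffold, and their genes went opposite ways. Cnot10 (chromosome 9, 114585874 to 114640220) had 121.8 and 121.9 CPM at 0 h and 89.5 and 92.0 CPM at 5 h. The 0 h libraries were almost equal and both 5 h libraries were below them. The change of Cnot10 was -0.43 ± 0.10 on the log2 scale (edgeR, Benjamini-Hochberg adjusted p = 0.00559), and without 0 h replicate 2 it was -0.42 with adjusted p = 0.0504, in a range from 5.09e-05 to 0.0504. Cnot11 (chromosome 1, 39535701 to 39546881) had 69.8 and 75.7 CPM at 0 h and 103 and 109 CPM at 5 h. It was higher in both 5 h libraries, with a log2 fold change of 0.55 ± 0.11 (edgeR, Benjamini-Hochberg adjusted p = 0.00210). It did not pass with library totals (0.28, adjusted p = 0.0576) or with mitochondrial scaling (-0.31, adjusted p = 0.171), in a range from 0.000159 to 0.171.

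Cnot4 (chromosome 6, 35022065 to 35133754), the ubiquitin ligase gene, had 175 and 191 CPM at 0 h and 182 and 239 CPM at 5 h. The groups overlapped, because 5 h replicate 1 lay between the 0 h libraries. The log2 difference, 0.20 ± 0.13, did not pass (edgeR, Benjamini-Hochberg adjusted p = 0.233). It rested on which 5 h library was used, at 0.38 without 5 h replicate 1 and -0.0020 without 5 h replicate 2. It also depended on the scaling. With library totals Cnot4 was at -0.070 (edgeR, adjusted p = 0.678), and with mitochondrial scaling it was lower (-0.67, edgeR, adjusted p = 0.00301).

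Cnot9, the gene of the subunit that binds the middle of the scaffold and receives the GW182 proteins of the microRNA pathway, is not among the 10, but is part of the same complex. It had 134 and 126 CPM at 0 h and 64.0 and 60.4 CPM at 5 h. Both 5 h libraries were at about the same level, far below both 0 h libraries. It fell by 1.06 on the log2 scale, to 0.480 times its 0 h level (SE 0.11; edgeR, Benjamini-Hochberg adjusted p = 4.73e-05), so that the complex held genes at 1.90 and at -1.06. Tnks1bp1, which encodes a large protein that binds the complex, had 51.7 and 41.2 CPM at 0 h and 65.9 and 54.3 CPM at 5 h and did not pass (0.36 ± 0.15, adjusted p = 0.0766). It passed with no filter on low counts (0.37, adjusted p = 0.0464), with the replicate number as a block (0.37, adjusted p = 0.0275), without 0 h replicate 1 (0.55, adjusted p = 0.0317) and without 5 h replicate 2 (0.50, adjusted p = 0.0196), in a range from 0.0196 to 0.65 over 14 alternatives.

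Gene length was set beside these values, since U1 snRNP protects long transcripts from premature cleavage and polyadenylation. The 10 genes span 11.2 kb (Cnot11) to 112 kb (Cnot4) from start to end in RefSeq. Cnot3, at 15.9 kb, falls among 4634 tested genes of 5 to 20 kb, whose median log2 fold change was -0.01 and of which 1.55% were at or above its value. Cnot1, Cnot2, Cnot6l and Cnot10, at 54.3 to 96.7 kb, fall among 1927 genes of 50 to 100 kb, of which 16.3% rose and 36.2% fell, with a median of -0.28. Of the 9 genes other than Cnot3, 8 lay above the median of their length class, and Cnot10 lay below it. Cnot9, at 24.8 kb, was at -1.06 against a class median of -0.21.

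**Figure D2:**
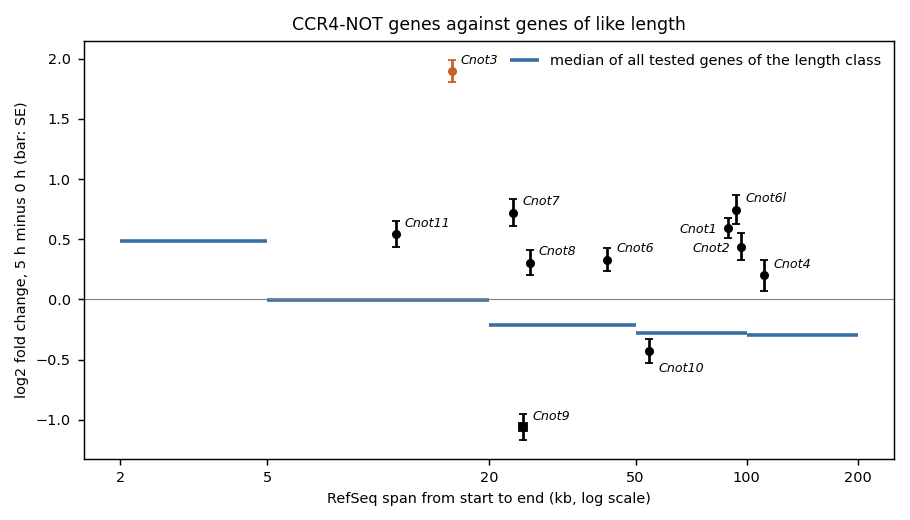
Log2 fold change (5 h minus 0 h, bars are SE) of the 10 CCR4-NOT genes (circles, Cnot3 in orange) and Cnot9 (square) against their RefSeq span in kb (log axis), with the median of all tested genes in each of 5 length classes as blue lines. Cnot1, Cnot2 and Cnot6l, at 89.2 to 96.7 kb, lie above their class median of -0.28, while Cnot10 lies below it.

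The ratio of 2 genes within a library does not depend on how libraries are scaled, so it shows how the make-up of the set changed. Of these ratios 5 were planned and 2 were added after the values had been seen. A permutation of 2 against 2 libraries cannot give a p below 0.333, and each ratio without Cnot3 gave that exact two-sided p, 0.333 also after adjustment over them. The levels of the ratios printed below also hold the lengths of both genes, so only their changes are interpreted.

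For the nuclease paralogues the log2 ratio of Cnot6 to Cnot6l was 2.92 and 2.99 at 0 h and 2.46 and 2.60 at 5 h, a change of -0.42. Both 5 h libraries had a lower ratio than both 0 h libraries, so labelled RNA shifted toward Cnot6l. The log2 ratio of Cnot7 to Cnot8 was 0.02 and 0.05 at 0 h and 0.32 and 0.57 at 5 h, a change of 0.41, toward Cnot7. The groups did not overlap here either, although the 5 h libraries differed widely. The log2 ratio of Cnot10 to Cnot11 was 0.80 and 0.69 at 0 h and -0.21 and -0.24 at 5 h, a change of -0.97, or 0.511 times. Among the 4 planned ratios without Cnot3 this was the largest change.

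The log2 ratio of Cnot2 to Cnot1 changed little, from -2.70 and -2.71 to -2.99 and -2.74 (-0.16). Its 5 h libraries differed from each other by more than this change. Set against Cnot2, Cnot3 went from 0.85 and 0.64 to 2.38 and 2.04, a change of 1.46, and set against Cnot1 it changed by 1.30, or 2.47-fold. Both Cnot3 ratios hold the values that chose the gene and carry no test. Cnot9 set against Cnot1 went from -2.26 and -2.45 to -3.98 and -4.04, a change of -1.66.

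**Figure D3:**
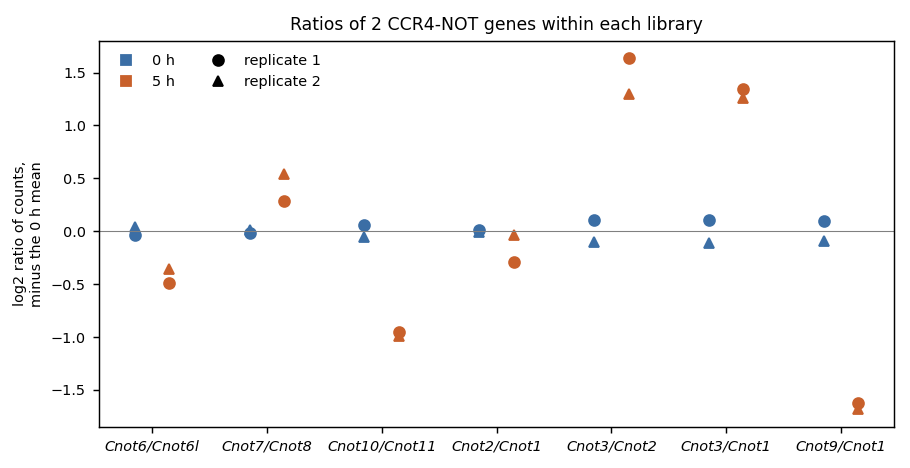
Log2 ratio of the counts of 2 genes within each library, minus the mean of the 0 h libraries (vertical axis), for 7 pairs of CCR4-NOT genes. Blue is 0 h, orange 5 h, circles replicate 1 and triangles replicate 2. The 5 h libraries lie below 0 for Cnot6/Cnot6l, Cnot10/Cnot11, Cnot9/Cnot1 and Cnot2/Cnot1, the last narrowly in replicate 2. They lie above 0 for Cnot7/Cnot8 and both Cnot3 pairs.

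How far the genes rose depended on the scaling. With library totals the median gene was at -0.28, and with mitochondrial scaling at -0.86. Beside the counts given above for the 9 genes, 13.2% of all tested genes rose and 30.3% fell with library totals, and 2.28% rose and 51.2% fell with mitochondrial scaling. The genes that rose with library totals were Cnot1 (0.33, adjusted p = 0.00869), Cnot6l (0.48, adjusted p = 0.00958) and Cnot7 (0.45, adjusted p = 0.00727). Cnot3 was at 1.63 with library totals and at 1.06 with mitochondrial scaling, and Cnot10 and Cnot9 stayed below 0 with both (-0.69 and -1.33, then -1.27 and -1.90). Relative to the median gene of the same fit, Cnot3 was at 1.91 to 1.92 and Cnot10 at -0.41 with all 3 scalings. This likeness follows from the calculation, since a change of scaling shifts all genes by nearly the same amount.

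**Figure D4:**
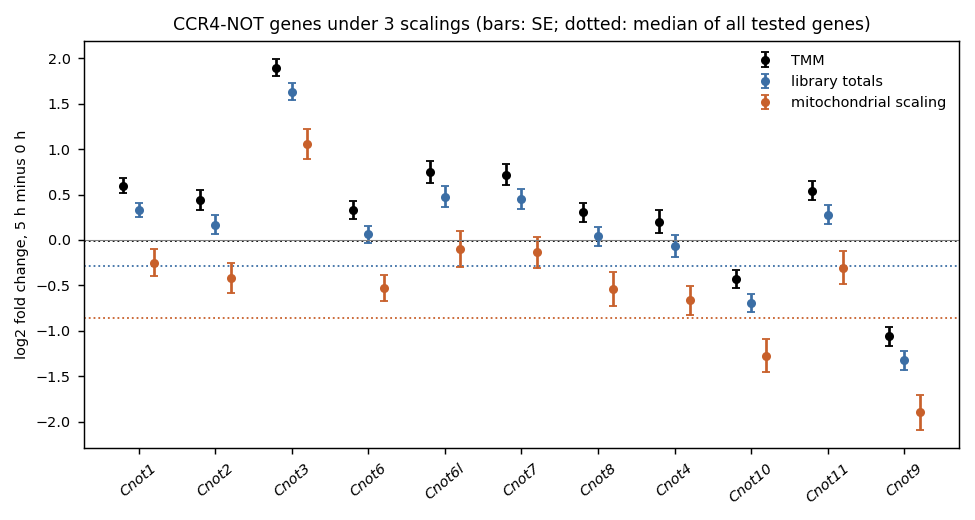
Log2 fold change (5 h minus 0 h, bars are SE) of the CCR4-NOT genes and Cnot9 with TMM (black), library totals (blue) and mitochondrial scaling (orange). Dotted lines are the median of all tested genes with each scaling (-0.02, -0.28 and -0.86). Only Cnot3 is above 0 with all 3, and at mitochondrial scaling the genes that rose with TMM other than Cnot3 lie below 0.

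The strand setting of the counting is not stated in the sources used here, and reads from genes that overlap cannot be told apart without it, so the neighbours of the 10 genes were examined. Cnot3 shares its last 1003 bases with Leng1, a gene on the other strand, which went from 11.8 ± 0.0697 to 17.5 ± 0.376 CPM (SD, n = 2 each). Leng1 rose by 0.57 ± 0.20 (edgeR, Benjamini-Hochberg adjusted p = 0.0391), and Cnot3 differed by 466 CPM between the groups. How reads from the shared bases were divided between Cnot3 and Leng1 is not known here, and their part in the rise was not tested. At its start Cnot3 overlaps the non-coding Gm15927 by 214 bases, and Gm15927 was at 4.78 ± 1.52 and 4.55 ± 1.38 CPM (log2 -0.02, adjusted p = 0.967). Mir3572, inside Cnot3, had 0 counts in all 4 libraries.

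The nearest coding gene upstream on the same strand, Prpf31, which encodes a protein of the U4/U6.U5 tri-snRNP and ends 2762 bases before the start of Cnot3, went the other way. It was chosen after its values were seen. It fell by 0.58 on the log2 scale, from 82.0 ± 5.32 to 55.0 ± 5.17 CPM (SE 0.12; edgeR, Benjamini-Hochberg adjusted p = 0.00333). Tfpt beyond it was at 0.53 ± 0.24 and did not pass (adjusted p = 0.102). Tmc4, next to Leng1, fell from 4.32 ± 0.00199 to 0.946 ± 0.420 CPM (log2 -2.14, adjusted p = 0.00550). Mboat7, next along, did not pass (0.27, adjusted p = 0.0662). Among the genes from Tfpt to Mboat7 other than Cnot3, the highest log2 fold change was the 0.57 of Leng1.

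**Figure D5:**
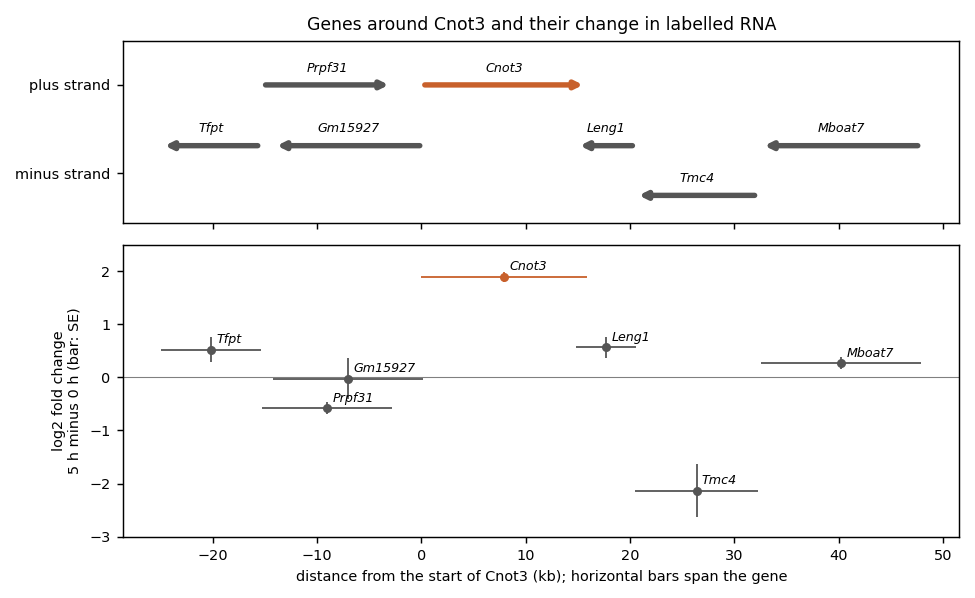
Genes around Cnot3, with their strand (top) and their log2 fold change, 5 h minus 0 h (bottom; vertical bars are SE, horizontal bars the gene's extent), against the distance from the start of Cnot3 in kb. Cnot3 is at 1.90, Leng1, which overlaps its end, at 0.57, and Prpf31 upstream at -0.58.

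Cnot1 holds 2 snoRNA genes and a miRNA gene within its span. The snoRNA Gm26493 had 23 and 18 counts at 0 h and 140 and 86 counts at 5 h and rose by 2.55 ± 0.38 (edgeR, Benjamini-Hochberg adjusted p = 0.000453), more than Cnot1 itself. Its counts were small beside those of Cnot1, which ran from 5409 to 14663. Gm26265, the other snoRNA, shares its symbol with another row and is given no value, and Mir7073 did not pass (adjusted p = 0.319). Setd6, which overlaps the end of Cnot1 by 2577 bases, rose by 0.51 ± 0.17 (adjusted p = 0.0309). It was at 37.7 ± 3.74 and 53.5 ± 11.9 CPM, and the non-coding 4930513N10Rik at the other end did not pass (adjusted p = 0.479).

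For the remaining genes, Vps37a overlaps Cnot7 by 4106 bases and was at 66.5 ± 4.00 and 77.5 ± 10.4 CPM without passing (log2 0.21, adjusted p = 0.202), and how its reads were divided from those of Cnot7 is not known here. The pseudogene Gm12191 inside Cnot6 rose by 0.57 ± 0.17 (adjusted p = 0.0190). Near Cnot8, Gemin5 was at -0.09 (adjusted p = 0.522), and near Cnot11 the snoRNA Snord89 was at 0.25 (adjusted p = 0.808). All these p-values are edgeR's with Benjamini-Hochberg adjustment over all genes. Neighbours of Cnot2, Cnot4, Cnot6l and Cnot10 in RefSeq were not analysed here, as no row of the table was matched to them.

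The genes whose centred log2 CPM profile over the 4 libraries lay nearest to that of Cnot3, among 9970 named genes with a mean of at least 5 CPM, included Snhg16, Snora21, Snhg12 and Ifitm5. Their Euclidean distances on the log2 scale were 0.0423, 0.0430, 0.0743 and 0.121. Snhg16 and Snhg12 are snoRNA host genes, and Snora21 is a snoRNA. Their log2 fold changes were 1.86, 1.91, 1.87 and 1.85 in the same order, against 1.90 for Cnot3. With 4 libraries in 2 groups such likeness reflects mostly the size of the change. These 4 span under 5 kb, the longest 4139 bases, whereas Cnot3 spans 15863 bases.

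Genes that act with CCR4-NOT moved both ways. Of 26 listed proteins that bring the complex to its targets, 23 were tested, 12 rose and 4 fell, with a median log2 fold change of 0.50. Of all tested genes 22.0% rose and 21.2% fell, with a median of -0.02. The 12 that rose span 3.93 kb (Nanos1) to 164 kb (Tnrc6a), and the 4 that fell 36.7 kb (Samd4b) to 230 kb (Tnrc6b). Among tested genes under 5 kb 32.1% rose and 4.71% fell (median 0.49), and among those over 100 kb 9.24% and 29.8% (median -0.29). The part of gene length in the counts of this list was not tested. Nanos1, which binds CNOT1 to repress target RNAs, had 520 and 220 counts at 0 h and 1516 and 1024 counts at 5 h. It went from 27.4 ± 0.869 to 108 ± 4.24 CPM (log2 1.98 ± 0.12; edgeR, Benjamini-Hochberg adjusted p = 6.85e-06). Btg1, which binds the CAF1 nucleases, rose from 89.1 ± 0.777 to 218 ± 17.1 CPM (log2 1.29 ± 0.10, adjusted p = 1.57e-05), and its relative Tob1 from 133 to 320 CPM (log2 1.27). Tnrc6b, a GW182 protein that microRNA complexes use to bring in CCR4-NOT, fell from 173 ± 4.64 to 86.2 ± 3.59 CPM (0.499 times its 0 h level, adjusted p = 4.46e-05). Its relative Tnrc6c was at -1.15 (adjusted p = 0.000108) and Tnrc6a at 0.33 (adjusted p = 0.00816). Tob1, Tnrc6c and Tnrc6a were chosen after their values were seen, and with mitochondrial scaling 4 of the list rose and 10 fell, where 2.28% of all tested genes rose and 51.2% fell.

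The next 14 genes, all tested, encode other deadenylases, poly(A)-binding proteins and partners of the latter (Paip1, Paip2 and Paip2b). Of these 14, 6 rose and 5 fell, with a median of 0.20 (all tested genes: 22.0% and 21.2%). Among the partners Paip2 rose, and Paip1 and Paip2b fell. Pabpc4 rose from 162 ± 1.89 to 299 ± 8.26 CPM (log2 0.89 ± 0.09; edgeR, Benjamini-Hochberg adjusted p = 4.88e-05), and Pabpc1, the main cytoplasmic poly(A)-binding protein gene, from 973 ± 27.9 to 1487 ± 82.8 CPM (log2 0.61 ± 0.08, adjusted p = 0.000243). PAN2 and PAN3 form the other main cytoplasmic deadenylase. Pan3 rose by 0.81 ± 0.09 (adjusted p = 0.000100), while Pan2, chosen after its value was seen, was at -0.57 (adjusted p = 0.00611). With mitochondrial scaling 0 of the list rose (edgeR; 0 at an unadjusted p under 0.05) and 9 fell (all tested genes: 2.28% and 51.2%), Pabpc1 was at -0.24 and Pan3 at -0.045.

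A list of 21 genes held mostly those of decapping and of decay from the 5′ end, which follow deadenylation. It also held Dcps, Eif4e2 and Gigyf2, which fit that label loosely, and of these Dcps and Gigyf2 fell. Of the 21 genes 5 rose, 5 fell and 11 did not pass, with a median of 0.00. These shares are near those of all tested genes (22.0% and 21.2%), so the counts are no result about the list. Edc4, a scaffold of the decapping complex, rose from 113 ± 0.841 to 240 ± 34.1 CPM (log2 1.08 ± 0.11; edgeR, Benjamini-Hochberg adjusted p = 5.55e-05). Dcp1b, a decapping activator, fell from 15.2 ± 0.391 to 3.39 ± 1.17 CPM (log2 -2.20 ± 0.30, adjusted p = 0.000237). Xrn1, the exonuclease that degrades decapped RNA, fell from 139 ± 7.30 to 74.5 ± 5.41 CPM (log2 -0.90 ± 0.11, adjusted p = 0.000120). With mitochondrial scaling 0 of the list rose (edgeR; 0 at an unadjusted p under 0.05) and 15 fell, against 2.28% and 51.2% of all tested genes.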

How the data were processed

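The authors deposited a table of estimated counts, 1 row per gene, made from reads by tools that the submitters' processing notes name without roles, HISAT2 2.2.1 and StringTie 2.2.1 (also DESeq2 1.42.0), on mm10. No source used here names the annotation or whether counting used strand. The counts were whole, but in every library 3 and 4 were each more frequent than 2, as in counts made from coverage, so counting error can exceed what they imply.

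Genes kept by filterByExpr (17344) were fitted in edgeR 4.0.16 (R 4.3.3) with TMM factors (1.10, 1.10, 0.927 and 0.896 for 0 h replicates 1 and 2 and 5 h replicates 1 and 2) and the robust quasi-likelihood test, 5 h minus 0 h, with Benjamini-Hochberg adjustment over all genes. SE is the log2 fold change divided by the root of F. A floor of 3 counts was 0.154 to 0.382 CPM, covering counting error only. The fit was tested on simulated data. DESeq2 1.42.0, limma-voom (limma 3.58.1), other scalings, filters, a division of the counts by 4, a replicate block and leaving out each library were alternatives.

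Gene spans and promoter windows came from RefSeq (GRCm38.p6). Length classes, the ratios (0.5 added to each count) and the profile distances were computed from the same counts.

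The members and lists were chosen with earlier results of these data known. Named genes were all 10 members, both genes outside them, per list the 3 called genes of lowest adjusted p, tested RefSeq genes within 2 kb of a member and the 5 nearest profiles, of which 1 is not reported here.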

Additional observations from a re-analysis of the deposited data

How the results depend on the processing

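Over 14 alternatives Cnot3 kept its direction, and its log2 fold change moved beyond the replicate spread with library totals (1.63) and mitochondrial scaling (1.06). With mitochondrial scaling Cnot1 (-0.25), Cnot2 (-0.42), Cnot4 (-0.67), Cnot6 (-0.53), Cnot6l (-0.10), Cnot7 (-0.13), Cnot8 (-0.54), Cnot11 (-0.31), Tnks1bp1 (-0.46), Pan3 (-0.045) and Pabpc1 (-0.24) changed sign. Cnot4 also changed sign with library totals (-0.070), and with a library left out ran from -0.0020 (without 5 h replicate 2) to 0.38 (without 5 h replicate 1). The median gene was at -0.28 and -0.86 in these scalings, and the cause of the move without a library was not tested.

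Of all tested genes 7491 were called, 3814 higher and 3677 lower. Library totals gave 2297 higher, and mitochondrial scaling 396 higher and 8872 lower. Of the members other than Cnot3, 3 (library totals) and 0 (mitochondrial scaling) were higher, and 4 were lower with mitochondrial scaling. For fits with a library left out, which leave 1 library in a group, no counts of called genes are given for any set. Recruiters gave 4 higher and 10 lower with mitochondrial scaling. The list of deadenylases, poly(A)-binding genes and their partners gave 3 higher with library totals. It gave 0 higher and 9 lower with mitochondrial scaling. With DESeq2 it gave 3 lower, where 2913 of all tested genes were lower. Decapping genes gave 8 lower with library totals, where 5257 of all tested genes were lower. They gave 0 higher and 15 lower with mitochondrial scaling. The cause was not tested.

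The labels do not say whether the replicate number marks a shared batch. Replicate 1 at 0 h and at 5 h deviated from their group means with a correlation of 0.05, which with 2 libraries a group cannot decide it. With the replicate number as a block 7382.0 genes were called, and 7 of the members other than Cnot3 were higher and 1 lower. Of the 20 members and list genes followed singly over the alternatives, only Tnks1bp1 changed its call with the block (0.37, adjusted p = 0.0275). Other list genes were not followed singly, and the whole decapping list gave 6 higher and 7 lower with the block, against 5 and 5 without it. Over all tested genes 3837 were higher and 3545 lower with the block, against 3814 and 3677 without it. The prior count of 1 moved no ratio beyond the replicate spread. Depth is lowest in 0 h replicate 2 (7174772 counts), and with 2 libraries a group small changes such as that of Cnot8 are near the limit of detection.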
